A study of Mus musculus with 6 samples.

Results

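Nuclear-retained long noncoding RNAs are transcripts that encode no known protein and stay mostly where they are made, in the cell nucleus. The set held 8 listed genes, Malat1, Neat1, Meg3, Miat, Rian, Mirg, Snhg11 and Kcnq1ot1, and its members were all non-control array probes that carry a listed gene symbol. That rule found 11 probes of 6 genes, out of 55681 different probes and 34741 gene names on the array. Miat and Rian had no probe under the rule and are not described. Of the 11 probes, 10 were bright enough to test, and 1 of the 2 Kcnq1ot1 probes was not well above background on any array.

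The series measured total RNA of mouse brain synaptosomes, nerve terminals pinched off from homogenised brain together with attached postsynaptic membrane, on 6 Agilent arrays of 1 colour. Knock-in samples (KI1 to KI3) and wild-type samples (WT1 to WT3) were compared, 3 in each group. The series title concerns FMR1 regulation by miRNAs and the tremor and ataxia syndrome FXTAS. The allele, strain and age of the mice are not given in the sources used here, and no treatment is named for either group. In the labels, the genotype entry for KI1 to KI3 says knock-out but the sample names and the design text say knock-in, and knock-in is the term kept here. Whether each sample is a different animal is not stated, so a p-value here covers only the spread among the arrays, part of which may be technical.

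Malat1 is held in nuclear speckles, where splicing factors gather, and Neat1 is the RNA scaffold of paraspeckles. Meg3, Rian and Mirg are made from the maternal copy of the imprinted Dlk1-Dio3 domain, in the same direction along the chromosome, and Rian and Mirg host small nucleolar RNAs and many miRNAs. Kcnq1ot1 is a very long antisense transcript, made from the paternal copy, that silences neighbouring genes in cis. Snhg11 is a host gene of small nucleolar RNAs and is abundant in neurons. Their signal in a synaptosome preparation is read here as a gauge of RNA carried over from cell bodies and nuclei. The series holds no whole-brain or nuclear sample, so the values show how the 6 preparations differ and not how much nuclear RNA any of them held. Intensities of different probes are not comparable as RNA amounts, so no member is ranked against another.

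The stretches below, each the first 30 bases of a 60-base probe written 5′ to 3′ in the sense of the RNA, are shown for 3 reasons: the Malat1 bases were printed under 2 names, the Meg3 probes gave unlike results, and the Mirg probes both read highest in the array WT2. Coordinates are those of the array files, on build mm9. The annotation used here is of another build, so exon and intron positions are not given.
Malat1, minus strand, chr19:5795713-5795772: cgtcttattacctctgagtcgacacacctc
NEAT2, minus strand, chr19:5795713-5795772: cgtcttattacctctgagtcgacacacctc
Meg3, plus strand, chr12:110782745-110782804: tagtggggacattaggagcaacctcctagg
Meg3, plus strand, chr12:110799558-110799617: gagtgacagaaaggatgaatgagcacacat
Meg3, plus strand, chr12:110809678-110809737: ttgagtagagagacccacctactgactgat
Mirg, plus strand, chr12:110979653-110979712: tggcccaacagcacagtcaaggaagctaaa
Mirg, plus strand, chr12:110987569-110987628: gactgagcagggaggggaaggaggggtttc
The Malat1 and NEAT2 probes share all 60 bases, and NEAT2 is an older name of Malat1. Both served as repeat readings of the same RNA and are treated so below.

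No member passed the threshold used throughout, limma's adjusted p of 0.05 with Benjamini-Hochberg adjustment over all features. Per gene, 0 of 6 members passed, with adjusted p between 0.559 and 0.896, against 2 of 20975 genes (0.00954%) over the array. Per probe, 0 of 10 passed, against 2 of 29318 (0.00682%). At an unadjusted p under 0.05 there were 0 of 6 genes and 2 of 10 probes, both of Meg3, where 10.9% of all genes and 10.4% of all probes reached it. By their brightest probes, 0 of the 6 genes had groups that did not overlap, against 20.3% of all genes. The 10 probes split into 5 with a higher and 5 with a lower knock-in mean, and their median difference was -0.01 in log2, beside -0.05 over all tested probes.

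Values are given as log2 of the processed intensity minus the 75th percentile of the same array, so a value of 0 is the intensity at that percentile. Malat1 was measured near its end, at base 6899 of the transcript. It read -0.97, -1.28 and -1.61 in KI1 to KI3 and -1.51, -1.36 and -2.14 in WT1 to WT3. KI1 was the highest array and WT3 the lowest, and the groups overlapped. The means were -1.29 ± 0.32 and -1.67 ± 0.41 (SD, n = 3 each), a log2 difference of 0.38 (SE 0.25, limma's adjusted p = 0.559 over genes). Set against WT3, the wild-type array on the slide of the knock-in arrays, the difference was 0.85. It was 0.54 without WT2 or without KI3, 0.22 without KI1 and 0.15 without WT3.

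Neat1 was measured at base 2855, at chr19:5842564-5842623 on the minus strand. It read 0.49, 0.28 and 0.01 in the knock-in arrays and 0.35, 0.01 and 0.28 in WT1 to WT3. The groups lay over each other, with means of 0.26 ± 0.24 and 0.21 ± 0.18 (SD, n = 3 each). The difference of 0.05 (SE 0.16, limma's adjusted p = 0.896) was smaller than the SD of either group.

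Meg3 had 3 probes, and they did not vary alike. The first along the chromosome, at base 762 of its transcript record, read 0.38, 0.18 and 0.10 in KI1 to KI3 and -0.21, -0.56 and -0.01 in WT1 to WT3. The middle one, at base 4169 of another Meg3 record, read 2.32, 2.27 and 2.03 against 1.91, 1.27 and 1.85. In both, the lowest knock-in array was above the highest wild-type array, and WT2 was the lowest of the 6. The differences were 0.48 (SE 0.17) and 0.53 (SE 0.20), or 1.39-fold and 1.44-fold, with limma's adjusted p = 0.458 and 0.460 over probes. Set against WT3 by the slide block they were 0.23 (SE 0.21) and 0.36 (SE 0.28), with adjusted p = 0.984 for both. With all arrays, 2 of the 10 member probes, these 2, had groups that did not overlap. Over all tested probes, 7.93% had KI1 to KI3 above every wild-type array, and 19.9% had no overlap in either direction.

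The last Meg3 probe, at base 1651 and the brightest of the gene, read 3.34, 3.46 and 3.32 in the knock-in arrays and 3.13, 4.08 and 3.27 in the wild-type arrays. Here WT2 was the highest array of all, and the other 5 lay between 3.13 and 3.46. The group means were 3.37 ± 0.07 and 3.49 ± 0.51 (SD, n = 3 each), a difference of -0.12 (SE 0.25, limma's adjusted p = 0.839 over genes). Without WT2 the difference was 0.17, and those of the other 2 probes were both 0.33, so the 3 probes then had the same sign. Within each array, the last probe minus the mean of the other 2 was 1.99, 2.23 and 2.26 in knock-in, 2.27 and 2.36 in WT1 and WT3, and 3.72 in WT2. Only WT2 stood apart by this measure among the 6 arrays.

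**Figure D1:**
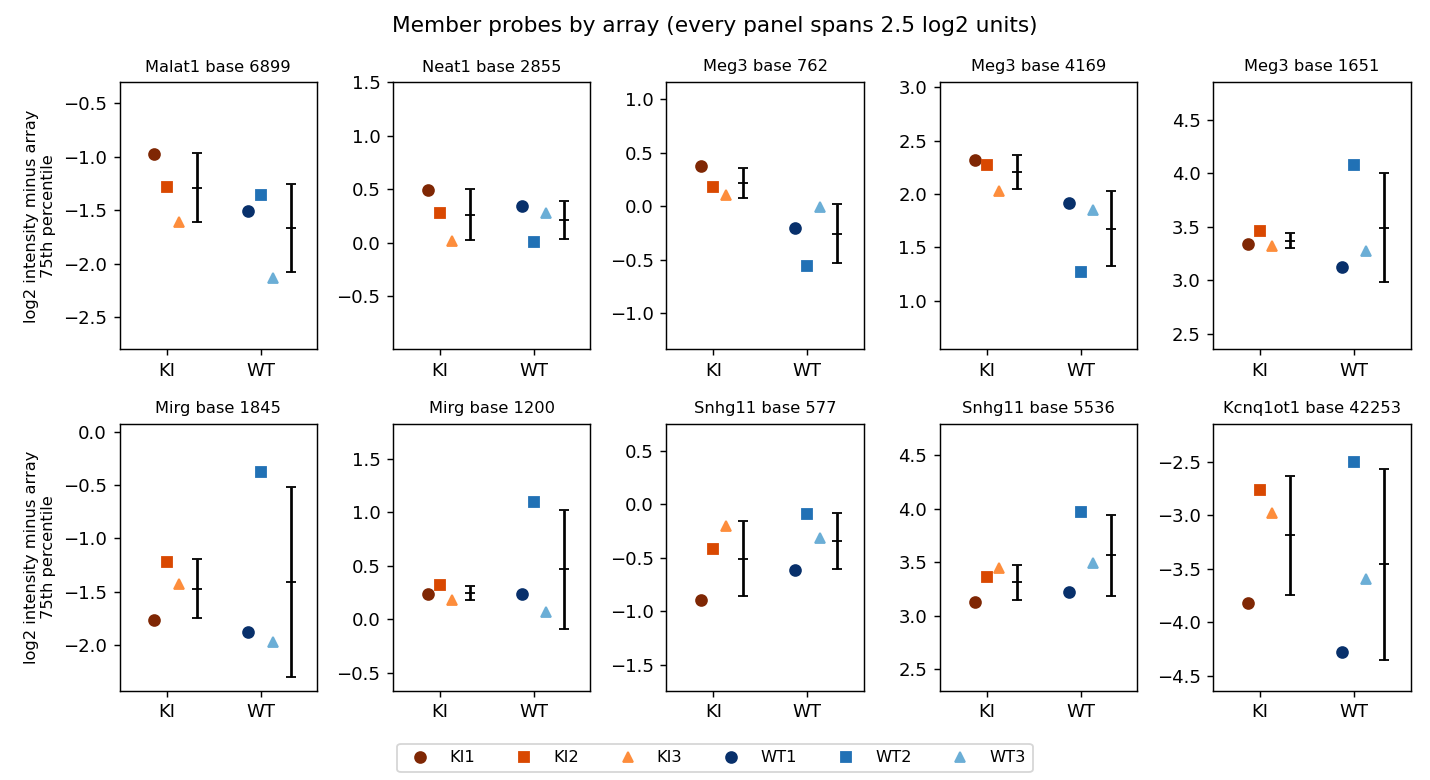
Each panel plots the log2 intensity of a member probe minus its array's 75th percentile for the 3 knock-in (KI) and 3 wild-type (WT) arrays, with the group mean and SD in black; every panel spans the same 2.5 log2 units. WT2 is the highest array for 6 of the 10 probes and the lowest for 3, and the groups separate only for Meg3 at bases 762 and 4169.

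Mirg, the miRNA host at the far end of the domain, had 2 probes, and both were highest in WT2. At base 1200 of its RefSeq record it read 0.24, 0.32 and 0.18 in KI1 to KI3, 0.24 and 0.06 in WT1 and WT3, and 1.10 in WT2. At base 1845 of a cDNA record it read -1.77, -1.22 and -1.43 in the knock-in arrays, -1.87 and -1.97 in WT1 and WT3, and -0.38 in WT2. The differences were -0.22 (SE 0.27, limma's adjusted p = 0.724 over genes) and -0.06 (SE 0.43, adjusted p = 0.957 over probes). Without WT2 they were 0.09 and 0.45, with the sign turned in both.

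Snhg11 was measured at chr2:158206508-158206567 and chr2:158211554-158211613, on the plus strand. The probe at base 5536 read 3.12, 3.36 and 3.45 in the knock-in arrays and 3.22, 3.97 and 3.49 in the wild-type arrays. The dimmer probe, at base 577, read -0.89, -0.42 and -0.20 against -0.62, -0.09 and -0.32. In both, KI1 was the lowest array and WT2 the highest, and the groups overlapped. The differences were -0.25 (SE 0.21, limma's adjusted p = 0.614 over genes) and -0.16 (SE 0.22, adjusted p = 0.757 over probes), and without WT2 they were -0.05 and -0.04.

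Kcnq1ot1 gave low intensities. At base 42253, chr7:150440140-150440199 on the minus strand, it read -3.82, -2.76 and -2.98 in the knock-in arrays and -4.28, -2.50 and -3.60 in the wild-type arrays. Those values correspond to processed intensities of 29.8 in WT1 to 134 in KI2. KI1 and WT1 were the lowest arrays of their groups and WT2 the highest of all 6. The difference was 0.27 (SE 0.49, limma's adjusted p = 0.812), and its SE was the widest of the 10 probes. The probe at base 48373, chr7:150434020-150434079, was not well above background on any array, so it has no fold change.

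Averaged over the 6 genes after each was centred on its mean of the 6 arrays, the members read -0.04, 0.12 and -0.05 in KI1 to KI3, and -0.25, 0.44 and -0.21 in WT1 to WT3. The knock-in arrays lay within the range of the wild-type arrays. The difference between group means was 0.02, beside an SD of 0.39 among the wild-type arrays and 0.09 among the knock-in arrays. Without WT2 it was 0.24. WT2 was the highest array for 6 of the 10 member probes and the lowest for 3. Over all 29318 tested probes it was the highest for 36.9% and the lowest for 22.4%. Several of the 10 probes belong to the same gene, so they are not independent readings, and the shares were not tested against each other. Of the 10 probes, 7 had a higher and 3 a lower knock-in mean without WT2, with a median of 0.25 beside -0.02 over all probes, and 0 passed the threshold (lowest limma adjusted p = 0.579).

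**Figure D2:**
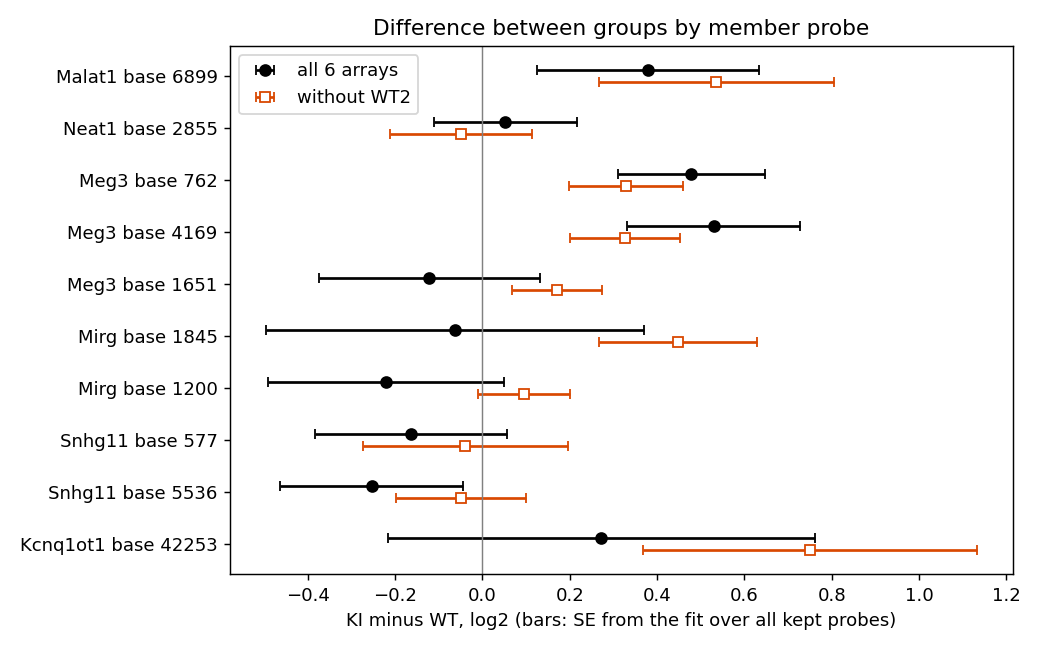
Points give the knock-in minus wild-type log2 difference of each tested member probe with all 6 arrays (filled) and without WT2 (open), and bars give the SE of limma's fit over all kept probes. The last Meg3 probe and both Mirg probes lie below 0 with all arrays and above 0 without WT2, and the Neat1 probe moves the other way, from 0.05 to -0.05.

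The array also holds probes for the same transcripts under other names, which the symbol rule did not take. On the strand of Malat1 and within its span, 10 more probes were well above background on all 6 arrays: 3 named NEAT2 and 7 named by a chromosome interval. The NEAT2 probe of identical sequence differed from the Malat1 probe by at most 0.20 on any array, with a median difference of 0.04 in size, and its group difference was 0.25 where the Malat1 probe gave 0.38. Repeat readings of the same bases thus moved the difference by 0.13.

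The 5 Malat1 probes at the end of the transcript, 6778 to 6898 bases from its first base, all had KI1 as the highest and WT3 as the lowest array and gave differences of 0.25 to 0.41. In the middle, 4050 to 4355 bases along, all 3 probes had WT1 as the highest and WT3 as the lowest array, and the differences were -0.47 to -0.19. Near the start, 344 to 481 bases along, WT1 was again the highest in all 3 probes, and the differences were 0.02 to 0.29. WT2 averaged 0.14 above the 6-array mean at the end, 0.42 above it in the middle and 0.26 below it near the start. With slide as a block, which sets the knock-in arrays against WT3, all 11 differences were positive, from 0.28 to 0.85. The negative values in the middle had SE of 0.33 to 0.35, the stretches were not tested against each other, and 0 of the 11 probes passed (limma's adjusted p between 0.562 and 0.980). WT3 was the lowest array in 10 of the 11.

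For Neat1, 5 more probes lay on its strand, and the 6 were 2632 to 2884 bases from the start. All 6 Neat1 probes had KI1 as the highest array and WT2 as the lowest, although WT2 and KI3 were nearly level at the probe named by symbol, and all gave small positive differences, 0.05 to 0.35 (limma's adjusted p between 0.640 and 0.901). Without WT2 the 6 differences were 0.012, -0.049, -0.0033, -0.038, 0.048 and -0.017, in order from the probe farthest along the transcript, so the shared positive sign was present only with that array included. WT2 lay 0.23 below the mean of the 6 arrays at the Neat1 probe named by symbol and 0.90 below it at the probe nearest the start. Averaged over the 6 probes the arrays read 0.35, 0.09 and -0.15 in KI1 to KI3 and 0.15, -0.49 and 0.06 in WT1 to WT3, so the groups overlapped. WT2 was low for Neat1 and high for the last Meg3 probe, Mirg and Snhg11.

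**Figure D3:**
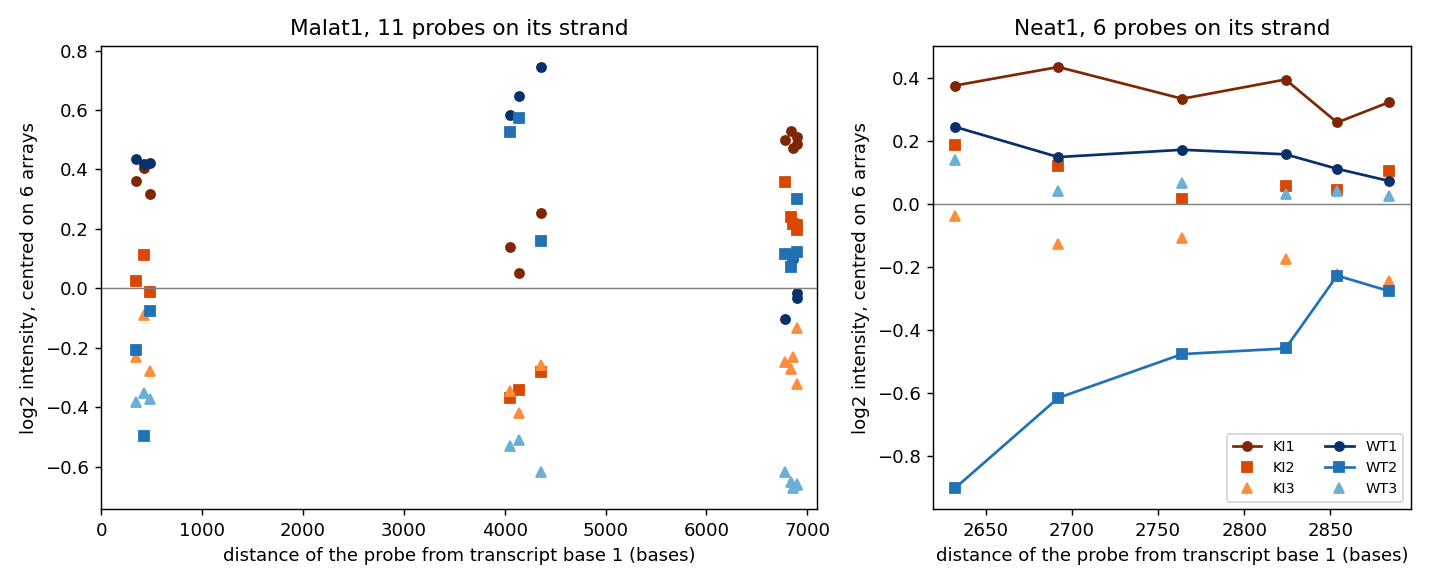
Points give the log2 intensity of each probe on the strand of Malat1 (left) or Neat1 (right), centred on the mean of the 6 arrays, against its distance from the first transcript base; lines in the right panel join the probes for KI1, WT1 and WT2. WT3 is low along Malat1, WT1 is highest near the start and in the middle but not at the end, and WT2 is lowest at every Neat1 probe.

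Between the last Meg3 probe and Mirg lie 163452 bases, the stretch in which RefSeq orders Rian. On the plus strand 30 probes fall there, none of them named Rian, and 14 were tested. Of these, 3 had a higher and 11 a lower knock-in mean, 0 passed the threshold, and their median difference was -0.18. The first 3 along the chromosome, named 6430411K18Rik and 1110006E14Rik, had KI1 as the highest and KI3 as the lowest array. The probe named EU616813, at chr12:110968992-110969051, was singled out after its values were seen. It read -1.39, -1.62 and -0.81 in the knock-in arrays and -3.12, -3.05 and -2.18 in the wild-type arrays, so that the groups did not overlap. Its difference of 1.51 (SE 0.32) was 2.84-fold, with limma's unadjusted p = 0.00266 and adjusted p = 0.428. Its difference kept its sign under every alternative tried, between 0.91 and 1.81, and passed under none.

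Inside the Mirg stretch, 13 more plus-strand probes named by chromosome intervals were present and 9 were tested. WT2 was the highest array for 5 of the 9. The probe with the widest spread read -0.78 in WT2 and -4.13 to -3.68 in the other 5 arrays. The 3 tested probes 203629 to 203699 bases from the first Meg3 probe differed between groups by -0.06 to 0.10. Probes along a stretch may read different transcripts, and which RNA each reads was not tested.

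**Figure D4:**
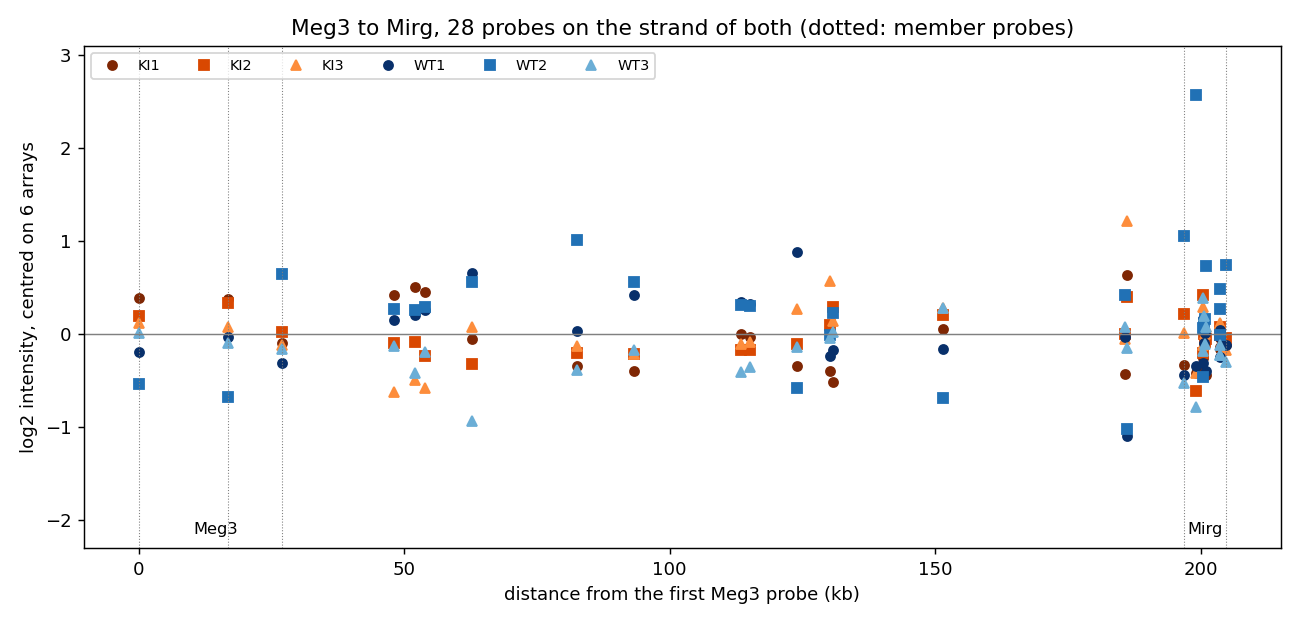
Points give the log2 intensity of each tested plus-strand probe from Meg3 to Mirg, centred on the mean of the 6 arrays, against its distance from the first Meg3 probe; dotted lines mark the member probes. WT2 is lowest at the first 2 Meg3 probes, highest at the third and at both Mirg probes, and reaches 2.57 above the mean within Mirg.

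Mirg is also a host of miRNAs. Within the RefSeq span of Mirg, on GRCm38.p6, lie 10 hairpins with 19 mature miRNAs, against 3 hairpins within Rian and 2 within Meg3. The arrays did not measure mature miRNAs, so the signal of the Mirg probes says nothing of their amounts. The seed, bases 2 to 8, which pairs with target mRNAs, is shared by 1 pair of the 19 and is given here in capitals.
mmu-miR-453: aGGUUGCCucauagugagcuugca
mmu-miR-496a-5p: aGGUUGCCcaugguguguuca

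The genes around the members and the genes for proteins of speckles and paraspeckles were read from lists. The mRNAs of these speckle and paraspeckle proteins were all measured, 37 of 37, and 0 passed the threshold. Their median difference was 0.11, beside -0.05 over all genes, and 7 had an unadjusted p under 0.05 with a higher knock-in mean, against 0 with a lower one. Over all genes, 4.45% had such a p with a higher and 6.4% with a lower knock-in mean. The splicing factor gene Srsf7 read 1.47, 1.46 and 1.22 in the knock-in arrays and 0.84, 0.84 and 0.76 in the wild-type arrays, a difference of 0.56 (SE 0.11, limma's adjusted p = 0.389). Matr3, which encodes a nuclear matrix protein that binds RNA, differed by 0.75 (SE 0.16) and Srsf2, a core speckle protein gene, by 0.43 (SE 0.12). These 3 were named for the smallest unadjusted p of the list, and in all 3 the groups did not overlap, but none passed the threshold. Of the 37 genes, 10 had every knock-in array above the wild-type arrays and 3 had every one below. Over all genes, 20.3% had no overlap in either direction.

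Of 50 other long noncoding RNAs on the list, 31 were measured, 16 with a higher and 15 with a lower knock-in mean. None passed limma's threshold, and the median difference was 0.03. An unadjusted p under 0.05 was found for 5, of which 2 had a higher and 3 a lower knock-in mean, where 10.9% of all genes reached it. Snhg3, a further snoRNA host, read 0.63, 0.63 and 0.60 in KI1 to KI3 and 0.90, 1.27 and 0.95 in WT1 to WT3, a difference of -0.42 (SE 0.13, adjusted p = 0.414). Ftx, from the X-inactivation centre, differed by -0.54 (SE 0.18). Tug1, which is found in both nucleus and cytoplasm, read 1.22, 1.26 and 0.88 in KI1 to KI3 and 0.66, -0.25 and 0.67 in WT1 to WT3, a difference of 0.76 (SE 0.27, adjusted p = 0.435), with WT2 again the lowest array. Both Xist probes were not well above background on any of the 6 arrays.

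Protein-coding neighbours were read by location. In the Dlk1-Dio3 list 0 of 11 measured genes passed, the median was -0.14, and the smallest unadjusted p was that of Wdr25, with a difference of -0.27 (SE 0.10, limma's adjusted p = 0.435), followed by Evl at -0.21 and Wars at -0.18. In the Kcnq1 list 0 of 13 passed and 10 had a lower knock-in mean, among them Ascl2, a transcription factor gene imprinted in the placenta, at -0.42 (SE 0.14), Cars at -0.24 and Osbpl5 at -0.17. Around Malat1 and Neat1 0 of 15 passed and 0 had an unadjusted p under 0.05, and Frmd8, Cdc42ep2 and Dpf2 differed by 0.19, -0.15 and 0.16.

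Dendritic and neuropil mRNAs, which are transported out of the cell body, served as the opposite class of transcript. Of 25 measured, 0 passed, 10 had a higher and 15 a lower knock-in mean, and the median was -0.07. Fmr1 itself differed by 0.82 (SE 0.10, limma's adjusted p = 0.198), the activity-induced Arc by 1.16 (SE 0.28) and the dendritic cytoskeleton gene Map2 by 0.33 (SE 0.11). The list mean read -0.18, 0.12 and 0.11 in KI1 to KI3 and -0.14, 0.10 and -0.0003 in WT1 to WT3. The members read -0.04, 0.12 and -0.05 in KI1 to KI3 and -0.25, 0.44 and -0.21 in WT1 to WT3.

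Markers of cell types and brain regions were set beside the members on each array. Neuronal markers, 21 of 21 measured, lay within -0.05 to 0.06 of their mean on every array. The members lay within -0.25 to 0.44, but that is a mean over only 6 genes. A mean over fewer genes spreads more by itself, so the 2 ranges are not like for like. Map2 differed by 0.33 (SE 0.11), Rbfox3 by -0.32 (SE 0.13) and the growth cone gene Gap43 by -0.26 (SE 0.13). The protein of Rbfox3 marks neuronal nuclei, but the arrays read its mRNA, which is no count of nuclei. Astrocyte markers, 14 of 14, lay within -0.05 to 0.05, although Gfap differed by 0.75, Ntsr2 by 0.27 and Aldoc by -0.22. Microglia markers, 15 of 15, lay within -0.08 to 0.09, with Fcrls at 0.28, C1qa at 0.32 and Cx3cr1 at -0.26. All these markers were well above background on all 6 arrays, in a preparation named for nerve terminals. None passed limma's threshold, where the unadjusted p of Map2, Gfap, Ntsr2, Fcrls, C1qa, Cx3cr1 and Rbfox3 was under 0.05.

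Oligodendrocyte markers, 18 of 18 measured and 16 with a higher knock-in mean, were lowest in WT2, at -0.37, and their summed level on the linear scale, relative to the 75th percentile, was 255 to 342 in knock-in and 219 to 311 in wild type. Mobp, Mog and Ugt8a, which encode myelin proteins or a myelin lipid enzyme, differed by 0.50, 0.33 and 0.47. Endothelial and mural markers, 15 of 16, lay between -0.30 in KI3 and 0.25 in KI1, with 0.17 in WT2, with a summed level of 16.4 to 19.7 against 17.7 to 22.3. Cldn5, Rgs5 and Abcb1a differed by -0.99, 0.59 and 0.42. The list of midbrain and hindbrain markers, 10 of 18 measured, lay within -0.22 to 0.26. On it, Tph2 differed by 0.95, Pvalb by -0.37 and Slc18a2 by 0.47. Whether each listed gene is confined to these regions was not tested, so these differences are not read as regional content. None of these genes passed the threshold.

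Striatal markers spread most among the lists. They read 1.79, 0.43 and -0.92 in KI1 to KI3 and 1.26, -1.26 and -1.29 in WT1 to WT3, with a summed level of 142 to 495 in knock-in and 139 to 365 in wild type. All 17 were measured, 16 with a higher and 1 with a lower knock-in mean, 0 passed, and 14 were well above background on all 6 arrays. Syndig1l, Six3 and Gpr6 differed by 1.96, 2.39 and 1.35, with SE of 1.22, 1.73 and 1.14. Choroid plexus and ependymal markers, 13 of 16 measured, had centred list means that were highest in WT1, KI2 and KI1. Of the 13, 10 had a higher and 3 a lower knock-in mean, and 8 were well above background on all 6 arrays. Their summed level was 29.3 to 36.1 in knock-in and 33.5 to 37.4 in wild type. Sostdc1 differed by 0.46, Ccdc153 by 2.26 and Folr1 by -0.62, and Folr1 was highest in WT2 and lowest in KI1. KI1 and WT1 were also the highest arrays at the start of Malat1 and on average over the Neat1 probes, and the lowest of their groups for Snhg11 and Kcnq1ot1. In the middle of Malat1 WT1 and WT2 were the highest, and at its end KI1 and KI2. The part of these regional markers, and of WT2, in the values of the members was not tested.

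**Figure D5:**
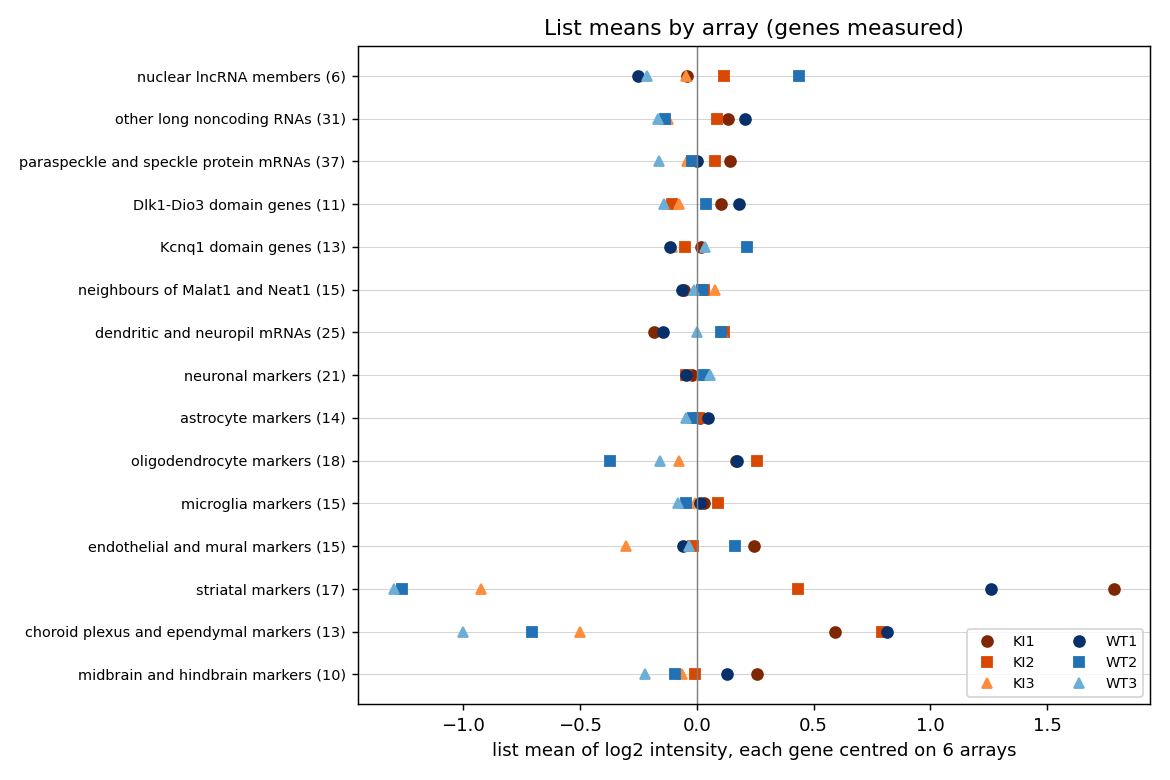
Points give the mean log2 intensity of each list on each array after centring every gene on its 6 arrays, with the number of measured genes in brackets. The members range from -0.25 in WT1 to 0.44 in WT2, the neuronal list stays within -0.05 to 0.06, and the striatal list runs from -1.29 in WT3 to 1.79 in KI1.

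Genes whose profile over the 6 arrays was most like the mean of the members were found by Pearson correlation among 11221 genes that ranged over at least 0.5 log2 units. The 5 most alike with a gene name were Brd2, a chromatin reader of acetylated histones, Stk38l, a kinase, Socs3, an inhibitor of cytokine signalling, Dpf1, a neuronal chromatin remodelling subunit, and Emd, which encodes the inner nuclear membrane protein emerin. Their correlations were 0.995, 0.986, 0.983, 0.980 and 0.978 over the same 6 arrays as the members, and are given as a description. In all 1.46% of the genes compared reached 0.9. For each member, by its brightest probe, the correlation was taken with the mean of all members, which includes that member and so raises the value. It was 0.96 for Meg3, 0.90 for Mirg, 0.84 for Kcnq1ot1, 0.75 for Snhg11, 0.43 for Malat1 and -0.55 for Neat1. The mean of the members was highest in WT2, the array in which Neat1 was lowest.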

How the data were processed

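Total RNA from 3 knock-in and 3 wild-type brain synaptosome samples was labelled with Cy3 and hybridised to 1 array each. Per the labels, a low-input QuickAmp kit was used, the RNA integrity number was 10 throughout, and the labelled amount was 0.2 µg, except for KI1, where the entry is 0.0 µg. Per the file headers, Feature Extraction 10.7.3.1 from Agilent gave for each spot a linear intensity, background-subtracted and detrended within the array; the authors did not normalize it between arrays. A table of log2 values deposited by the authors served as an alternative; each of its columns ranked spots as the raw median intensity of its array did, with column medians of 6.55 to 6.56, and its normalization between columns is not known from the sources used here.

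Control spots were left out, as were outlier spots unless all spots of a probe were so marked. Log2 processed intensities were scaled by each array's 75th percentile over non-control spots (883, 909 and 910 in KI1 to KI3; 578, 580 and 823 in WT1 to WT3), and spots of a probe were averaged. The share of spots well above background was 52.9% to 55.7%, no spot was saturated, and arrays correlated pairwise at 0.981 to 0.994 across genes. A probe was kept when well above background on at least 3 of 6 arrays, which left 29318 probes, and the brightest kept probe stood for each of 20975 genes. The number of arrays limits the precision. Names came from the RefSeq table of GRCm38.p6 (27235 probes by accession, 3581 by symbol, 565 by an older symbol; 24300 kept the file's name). MiRNA sequences are RefSeq's, of that build.

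Groups were compared with lmFit and eBayes of limma 3.58.1 (R 4.3.3), per gene and per probe, with 2-sided tests and Benjamini-Hochberg adjustment over all features at 0.05. The procedure was tested on simulated data with independent arrays and with the spread shuffled over probes. The simulation held no slide effect and no array set apart as WT2 was, so it cannot speak to either. Summaries used Python 3.11.15 with pandas 2.3.3. Slide 1 held KI1 to KI3 and WT3, and slide 2 held WT1 and WT2. With slide as a fixed block, knock-in is compared with WT3 alone. KI1 and WT1, KI2 and WT2, and KI3 and WT3 had correlations of 0.40, -0.02 and 0.25 in their deviations from the group means. For pairs of unlike number they were -0.40 to 0.15. The sources state no pairing, so the main fit did not pair samples by number, and a replicate block was run as an alternative. With that block Malat1 and Kcnq1ot1 had SE of 0.14 and 0.20, where the main fit gave 0.25 and 0.49. Their unadjusted p by limma was then 0.045 and 0.243, with adjusted p = 0.432 and 0.530. Alternatives were normexp correction (offset 50), quantile normalization, the median of detected probes as the scale, the deposited log2 table, both filter settings, the mean of a gene's probes, slide and replicate blocks, an intensity trend with robust moderation, and leaving out each array.

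Every probe of the members is named, and of every other list up to 3 measured genes of smallest unadjusted p. Likeness was taken over genes without placeholder names. The members, lists and tests were chosen with earlier results of these data known.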

Additional observations from a re-analysis of the deposited data

How the results depend on the processing

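The count of members past the threshold was 0 under every alternative, per gene and per probe. Over all genes the count past limma's threshold was 2 with all 6 arrays, 1 with normexp, 0 with the authors' value table, without a filter on dim probes, with the filter asking for all 6 arrays and with the replicate block, 5 with the mean of all kept probes of a gene, 7 with slide as a fixed block, 5 with slide as a random block, 5 with slide 1 alone and 6 with an intensity trend and robust moderation. Leaving out an array gave 0 (without WT1 or WT2) to 3. Over probes it was 2, against 1 with normexp, 0 with the authors' value table, without the filter, with the stricter filter and with the replicate block, 10 with slide as a fixed block and 4 with slide 1 alone, and 0 (without WT1 or WT2) to 5 (without KI2) on leaving out an array. With all arrays, 2276 genes and 3056 probes had an unadjusted p under 0.05. The mean of the members differed between groups by -0.03 to 0.22 under the alternatives and by -0.10 to 0.24 on leaving out an array, against 0.02. The random slide block was not run on that mean.

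Single differences turned sign as follows, and the cause was not tested. Neat1 was -0.014 with slide as a fixed block and with slide 1 alone, and -0.064 (without KI1) to 0.18 on leaving out an array, with -0.049 without WT2. Meg3 by its brightest probe was 0.30 with the mean of its probes, 0.097 under both slide settings, and -0.31 to 0.17 (without WT2) on leaving out an array. Mirg was 0.18 under both slide settings and -0.42 to 0.094 (without WT2) on leaving out an array. Its probe at base 1845 was 0.50 under both slide settings, 0.038 with the authors' value table and -0.34 to 0.45 (without WT2) on leaving out an array, with 0.084 without KI1. Kcnq1ot1 was -0.018 with normexp and -0.14 (without WT1) to 0.75 on leaving out an array. The Snhg11 probe at base 577 was -0.32 to 0.029 (without KI1) on leaving out an array. Malat1, Snhg11 at base 5536 and the Meg3 probes at bases 762 and 4169 turned under none of the alternatives tried. With 3 arrays a group, differences within their SE were not detectable, and larger ones did not pass either. The Meg3 probe at base 762, for example, differed by 0.48 (SE 0.17, limma's adjusted p = 0.458).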

Other observations

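Probes on the strand opposite to the members also gave signal. Of 45 such probes in the members' stretches, 18 were tested and 0 passed limma's threshold. A probe opposite to Malat1, 5223 bases from its start, read 0.30 to 0.64 on the 6 arrays, and a probe opposite to Neat1, 366 bases from its start, read 1.64 to 1.93. Neither had group differences past 0.09 in size. Probes named KCNQ1ot1, in upper case, lie on the plus strand, opposite to Kcnq1ot1; 2 of these 5 were tested and differed by -0.18 and -0.17.

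Isolated high readings occurred on single arrays, not always the same one, at the Kcnq1ot1 locus, between Meg3 and Mirg and at Mirg. The examples were picked after their values were seen. A KCNQ1ot1 probe 191 bases from the transcript start read -2.31 in WT3 and -7.76 to -7.13 in the other arrays, a second, at 586 bases, read -4.09 in WT2 and -7.45 to -7.03 in the others. Between Meg3 and Mirg, a plus-strand probe read -3.05 in WT3 and -7.42 to -6.72 elsewhere, the minus-strand probe of Rtl1 read -4.26 in WT2 and -7.54 to -7.04 elsewhere, and another minus-strand probe read -2.90 in KI2 and -7.59 to -6.95 elsewhere. In the Mirg stretch a plus-strand probe read -1.80 in WT3 and -7.55 to -6.29 elsewhere, and a minus-strand probe read -2.37 in KI1 and -7.18 to -5.45 elsewhere.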
